A study of Homo sapiens with 7 samples.

Results

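Hi-C contacts that link chromosomes 4, 5 and 18 to other chromosomes (trans contacts) are described here in 7 libraries of DLD1 cells, an established human colorectal adenocarcinoma line. The members are whole-chromosome pairs on hg38: every pair with chromosome 4, 5 or 18 on one side and one of chromosomes 1 to 7, 9 to 18, 20 and 21 on the other. They number 51, beside 202 other pairs of chromosomes 1 to 22 and X, and 3 of the 51 join 2 of the 3 chromosomes to each other. The other 120 pairs of the same 19 chromosomes serve as the comparison set.

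All cells carried DNMT1-AID, a DNMT1 fused to an auxin-inducible degron, so that the protein is broken down when the plant hormone auxin is added. The first line also carried a DNMT3B knockout and was sampled with no auxin (untreated), at 4 d and at 10 d in auxin. The second line, DNMT1-AID alone, was sampled untreated, at 4 d, at 10 d, and when 4 d in auxin had been followed by 4 d free of it (washout). The untreated knockout library was placed by its title, since its genotype label names DNMT1-AID only. No library came from untagged cells, so an effect of auxin itself and the loss of DNMT1 cannot be told apart. Each group held 1 library, and the labels do not say how many cultures or clones stand behind it. No difference was therefore tested, and directions over pairs describe these libraries only. Several comparisons share a library, so their values are given side by side.

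In the interphase nucleus each chromosome keeps to a territory, and trans contacts form where territories meet or intermingle. Gene-dense chromosomes tend to lie towards the nuclear centre and gene-poor ones towards the periphery, and human chromosome 18 is the textbook gene-poor chromosome near the lamina. DNMT1 copies DNA methylation onto the new strand after replication, and DNMT3B can methylate unmethylated DNA. Gene-poor chromatin at the lamina often replicates late and loses part of its methylation over long domains in cancer cells.

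The label "gene-poor" fitted the annotation. Chromosome 18 held 270 protein-coding genes on 80.4 Mb, or 3.36 genes per Mb, the 2nd lowest density of 23 chromosomes. Chromosome 4 had 4.05 genes per Mb on 190.25 Mb (3rd lowest) and chromosome 5 had 4.98 on 181.55 Mb (5th lowest). Chromosome 13 had the lowest density, 2.95 genes per Mb, and chromosome 17 had the highest among the partners. Chromosomes 4 and 5 are thus long and gene-poor, and chromosome 18 is short and gene-poor. In the authors' clusters of 50 kb bins from the untreated DNMT1-AID library, the inactive cluster B2/B3 covered 49.8% of the clustered bins of chromosome 4, 42.9% of chromosome 5 and 47.2% of chromosome 18. The active cluster A1 covered 1.27% of chromosome 4, 1.15% of chromosome 5 and no bin of chromosome 18, compared with 35.0% of chromosome 17. Clusters of chromosome 13 were not analysed here.

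The libraries held 101594306 to 133252390 contacts in knockout cells and 27345260 (washout) to 222645438 in DNMT1-AID cells. Members made up 23% to 23.4% of trans contacts in the knockout libraries and 24.1% to 24.4% in the DNMT1-AID libraries. Chromosome 8, in no member, had 1.44 to 1.46 times its untreated DNMT1-AID relative coverage in the knockout libraries. It enters the trans totals and the median of all pairs, and its part in the differences between genotypes was not tested. For each pair 2 readings are given, as log2 relative to the median of all pairs of chromosomes 1 to 22 and X in the same library. The balanced reading is the deposited matrix-balanced signal per valid bin pair. The count reading divides raw contacts by the product of the 2 chromosomes' trans totals, so that a chromosome with many trans contacts overall is set off against itself. The 95% counting half-interval of a member's level was at most 0.031 in the washout library and 0.017 in the others, and covers counting error only. A difference between libraries of at least 0.05 in balanced log2 (1.04-fold) is counted as higher or lower.

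By balanced contact, members lay below the other pairs. Their median was -0.21 in untreated knockout cells and -0.14 in untreated DNMT1-AID cells, while that of the 120 other pairs was 0.061 and 0.11 in the same libraries. Over the 7 libraries, 14 to 18 of 51 members exceeded the median pair, against 67 to 73 of 120 other pairs. The count reading turned this order around: 29 to 31 members exceeded the median pair, against 50 to 56 other pairs. Members were thus low per bin pair. Dividing by trans totals holds each chromosome's average over its partners close to the median pair by construction. The order by counts is therefore no separate finding about the members.

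The 3 pairs among the gene-poor chromosomes all lay below the median pair in balanced contact, in every library. Chromosomes 4 and 5 with each other stood at -0.52 in the untreated knockout library, -0.50 after 4 d and -0.45 after 10 d, against -0.50 in untreated DNMT1-AID cells, -0.49 after 4 d, -0.44 after 10 d and -0.48 after washout. In DNMT1-AID cells that was rank 24 from the bottom among all pairs when untreated. By counts the same pair was above the median pair in all 7 libraries, from 0.069 to 0.11.

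Chromosomes 4 and 18 with each other had balanced levels of -0.41, -0.41 and -0.35 in the knockout libraries, against -0.40, -0.36, -0.31 and -0.39 in the DNMT1-AID libraries. Values run untreated, 4 d, 10 d and, in DNMT1-AID cells, washout, here and in later lists. Counts also put this pair below the median pair throughout, at -0.095, -0.11 and -0.100 in the knockout libraries, against -0.14, -0.095, -0.070 and -0.12 in the DNMT1-AID libraries. Chromosomes 5 and 18 were the closest of the 3 pairs by balanced contact, at -0.21, -0.16 and -0.11 in the knockout libraries, against -0.12, -0.087, -0.071 and -0.10 in the DNMT1-AID libraries. By counts they lay near the median pair, between -0.010 and 0.043. The 3 pairs kept the order 5 with 18, 4 with 18, 4 with 5 in every library by balanced contact. By counts the order was 4 with 5, 5 with 18, 4 with 18 in every library. No single level was shared by the 3 gene-poor pairs.

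**Figure D1:**
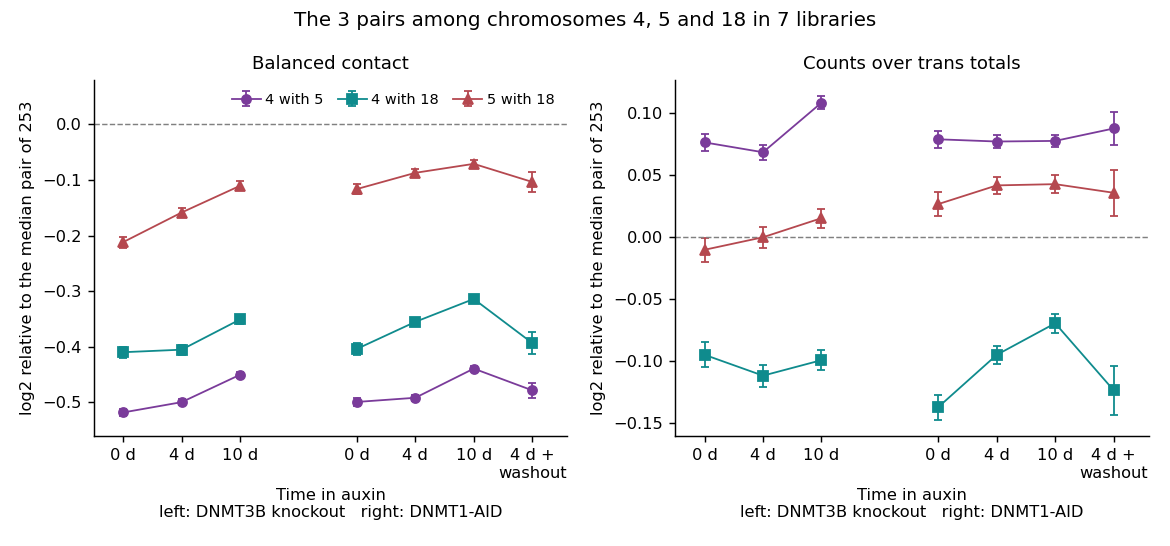
Relative contact of the 3 pairs among chromosomes 4, 5 and 18 (log2 relative to the median of all pairs; bars are 95% counting intervals) by time in auxin, with knockout libraries left of DNMT1-AID libraries in each panel. All points of the left panel lie below 0, whereas 4 with 5 lies above 0 and 4 with 18 below 0 throughout the right panel.

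Chromosome 4 had the lowest median balanced contact of the 19 chromosomes, -0.29 over its 18 partners in untreated DNMT1-AID cells. Its lowest partner was chromosome 13, the most gene-poor of all, at -0.68, -0.66 and -0.58 in the knockout libraries, against -0.66, -0.66, -0.62 and -0.66 in the DNMT1-AID libraries. Chromosome 3 followed at -0.51 in untreated DNMT1-AID cells. The highest partners were chromosome 17, at 0.012, and chromosome 15, itself the median pair of that library. By counts the order was another: chromosome 2 led at 0.23 and chromosome 6 followed at 0.14, whereas chromosomes 20 and 21 were lowest at -0.21 and -0.20. Chromosome 2 was the highest and chromosome 20 the lowest partner by counts in all 7 libraries.

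Chromosome 5 had a median balanced contact of -0.15 in untreated DNMT1-AID cells. Chromosome 13 was its lowest partner in every library, at -0.55, -0.53 and -0.47 in the knockout libraries, against -0.51, -0.52, -0.48 and -0.49 in the DNMT1-AID libraries. Chromosome 2 stood at -0.45 in untreated DNMT1-AID cells, and the highest partners were chromosomes 21 and 17 at 0.22 and 0.20. By counts chromosome 5 had one of the flattest profiles of the 19 chromosomes, with an SD over partners of 0.068 (3rd lowest). Its range by counts ran from -0.14 with chromosome 13 and -0.087 with chromosome 14 up to 0.086 with chromosome 7 and 0.14 with chromosome 2.

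Chromosome 18 had the widest profile of the 3, with an SD over partners of 0.43 by balanced contact in untreated DNMT1-AID cells, against 0.24 for chromosome 5 and 0.19 for chromosome 4. Its highest partner in every library and by both readings was chromosome 21, at balanced levels of 0.79, 0.90 and 0.83 in the knockout libraries, against 0.99, 0.96, 0.86 and 0.97 in the DNMT1-AID libraries. The untreated DNMT1-AID level is 1.99 times the median pair. By counts the pair had 0.43, 0.49 and 0.36 in the knockout libraries, against 0.48, 0.46, 0.39 and 0.46 in the DNMT1-AID libraries. Chromosome 20 came second, at 0.76 balanced and 0.36 by counts in untreated DNMT1-AID cells. The lowest partners were the long chromosomes 2 and 3 by balanced contact, at -0.45 and -0.40, and chromosomes 3 and 1 by counts, at -0.21 and -0.20. Chromosome 21 is short and, at 5.11 genes per Mb, about as gene-poor as chromosome 5, and chromosome 20 is short with 8.33 genes per Mb.

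**Figure D2:**
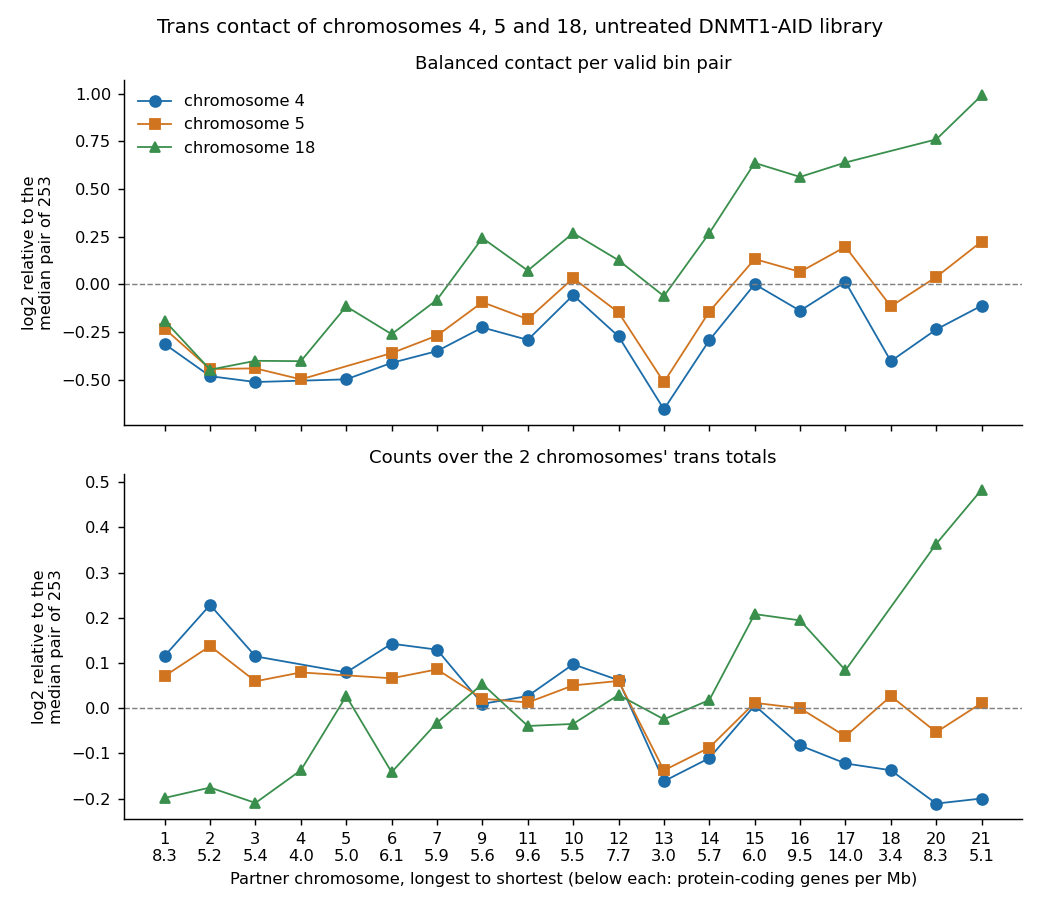
Relative contact (log2 relative to the median of all pairs) of chromosomes 4, 5 and 18 with each partner in the untreated DNMT1-AID library, partners ordered from longest to shortest with their genes per Mb, balanced reading above and count reading below. Balanced contact of all 3 climbs towards short partners and dips at chromosome 13, while by counts chromosome 4 leans to long partners and chromosome 18 to short ones, up to 0.48 with chromosome 21.

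Partner length went more closely with the profiles of chromosomes 5 and 18 than partner gene density did, in every library and by both readings. For chromosome 4 this was so by counts, and by balanced contact, on Pearson's r, in the 4 d and 10 d DNMT1-AID libraries only. By rank (Spearman's rho) it held in all 4 DNMT1-AID libraries, with -0.57 for length and 0.53 for density when untreated. Pearson's r is given over 18 partners as a description, since the partners share one library and one anchor. By balanced contact, r with log10 partner length was -0.93 to -0.89 over the 7 libraries for chromosome 18, -0.77 to -0.67 for chromosome 5 and -0.58 to -0.40 for chromosome 4. By counts it was -0.93 to -0.86 for chromosome 18, but 0.53 to 0.77 for chromosome 5 and 0.88 to 0.90 for chromosome 4. The long gene-poor chromosomes thus leaned to long partners by counts, and the short one to short partners. In untreated DNMT1-AID cells the count reading of chromosome 18 was lower by 0.27 per doubling of partner length, while that of chromosome 4 gained 0.19 and that of chromosome 5 0.064. With expectations fitted to the totals without self-pairs, an alternative chosen after seeing the data, these slopes were -0.31, 0.14 and 0.024.

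Gene-dense partners had more balanced contact with all 3 chromosomes. This was not particular to gene-poor chromosomes. In untreated DNMT1-AID cells r with genes per Mb ran from 0.14 (chromosome 14) to 0.70 (chromosome 1) over the 19 chromosomes. Chromosomes 4, 5 and 18 ranked 11, 9 and 4 from the bottom. For r with genes per Mb, balanced contact gave 0.45 to 0.57 for chromosome 4 over the 7 libraries, 0.49 to 0.55 for chromosome 5 and 0.40 to 0.48 for chromosome 18. In untreated DNMT1-AID cells the 5 most gene-dense partners (1, 11, 16, 17, 20) had a median of -0.24 with chromosome 4, and the 5 most gene-poor (2, 3, 10, 13, 21) had -0.48. With chromosome 5 these medians were 0.038 and -0.44, and with chromosome 18 0.56 and -0.062. Single partners of the 2 classes overlapped for all 3 chromosomes. Over the members together, balanced contact gained 0.050 log2 per gene per Mb in untreated knockout cells and 0.045 after 10 d, and 0.051 in untreated DNMT1-AID cells and 0.045 after 10 d. By counts this slope lay between -0.0022 and 0.0015 and took either sign, and it pooled chromosomes that differed in sign. By counts r with genes per Mb was above 0 for chromosome 18 in all 7 libraries (0.095 to 0.31), and below 0 for chromosome 4 (-0.30 to -0.10) and chromosome 5 (-0.25 to -0.059).

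Length and density were only weakly related among the partners (r = -0.14 for chromosome 4, -0.16 for 5 and -0.27 for 18). With both fitted together, the balanced slope per gene per Mb in untreated DNMT1-AID cells was 0.036, 0.035 and 0.028 for chromosomes 4, 5 and 18. By counts it was 0.0012, -0.0016 and -0.0058. The share of a partner in the inactive cluster B2/B3, over 17 partners with clusters from the same library, had r = -0.63, -0.55 and -0.53 with balanced contact of chromosomes 4, 5 and 18. By counts these were 0.22, 0.47 and -0.32. These 3 signs are those of r with log10 partner length by counts in the same library (0.90, 0.61 and -0.93). Inactive share and length were not fitted together, so the 2 cannot be told apart here. The clusters also rest on contacts of this same library, so they are no independent measure.

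The lean towards partners of like length was not particular to the gene-poor chromosomes. In untreated DNMT1-AID cells, r between count reading and log10 partner length was above 0 for 10 of the 19 chromosomes, and reached 0.95 for chromosome 2, 0.90 for chromosome 4 and 0.87 for chromosome 3. Chromosome 18 was at the other end with -0.93, followed by chromosomes 20 (-0.89) and 21 (-0.85), whose gene densities differ. By balanced contact all 19 chromosomes had r below 0, and chromosome 18 the lowest.

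After 10 d of auxin in DNMT1-AID cells, chromosome 18 had more relative contact with 4 of its long partners, and less with 8 shorter ones, than when untreated, while no pair of chromosomes 4 or 5 was lower by 0.05. Of the 51 members, 7 were higher and 8 lower by at least 0.05 than when untreated. Among all pairs, 11.5% were higher and 27.7% lower by that much, so the members' counts of higher pairs stood near the background and those of lower pairs below it. All 8 lower members were pairs of chromosome 18, with chromosomes 9, 13, 14, 15, 16, 17, 20 and 21. The higher ones were chromosome 18 with 2, 3, 4 and 6, chromosome 4 with 5 and 21, and chromosome 5 with 3. The 120 other pairs included 0 higher and 45 lower. Medians were 0.012 for the members and -0.036 for the others.

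Chromosome 18 with chromosome 20 had a balanced level of 0.61 after 10 d and 0.76 untreated. The difference was -0.15 in balanced contact and -0.093 by counts (95% counting half-interval 0.016, from the raw counts). With chromosome 17 the differences were -0.14 and -0.072, and with chromosome 21 -0.13 and -0.090. At the other end, chromosome 18 with chromosome 4 differed by 0.090 balanced and 0.068 by counts, with chromosome 3 by 0.077 and 0.063, and with chromosome 2 by 0.076 and 0.071. Both readings thus gave these 6 pairs the same direction.

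Grouped by length, the 5 longest partners (1, 2, 3, 6, 7) had a median change with chromosome 18 of 0.059 balanced and 0.058 by counts, with all 5 above 0 by both and 3 of them past 0.05. The 5 shortest (15, 16, 17, 20, 21) had -0.13 and -0.072, with all 5 past 0.05 downwards by balanced contact and 4 by counts. The change grew by 0.11 per doubling of partner length (r = 0.90 over 18 partners), and by 0.079 by counts (r = 0.94). For chromosome 4 the balanced slope was -0.0097 and for chromosome 5 0.013. By counts the change of chromosome 4 had a median of 0.034 with its 5 shortest partners, all above 0 and 1 past 0.05, and of -0.015 with its 5 longest, all below 0 and none past 0.05. Gene density of the partner had r = -0.40 with the change of chromosome 18, -0.35 for chromosome 5 and -0.38 for chromosome 4.

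**Figure D3:**
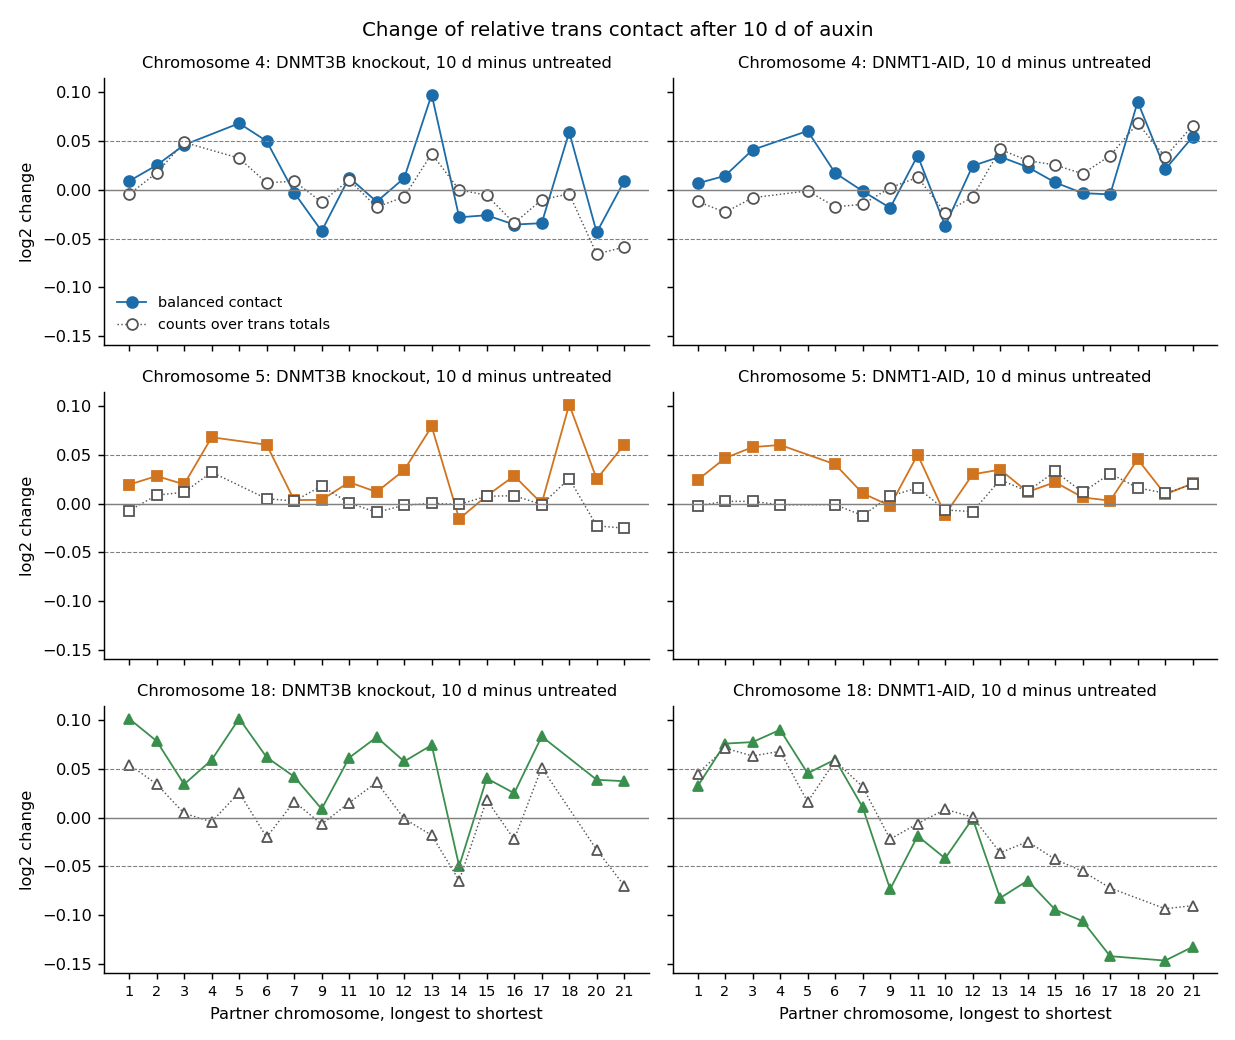
Log2 change of relative contact after 10 d of auxin for chromosomes 4 (top), 5 and 18 (bottom) with each partner from longest to shortest, knockout cells in the left column and DNMT1-AID cells in the right; filled symbols are balanced contact, open symbols counts, dashed lines the size of 0.05. In DNMT1-AID cells chromosome 18 runs from above 0 with long partners to -0.15 with chromosome 20, while in knockout cells 17 of its 18 filled points lie above 0.

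The profile of chromosome 18 became flatter. Its SD over partners was 0.43 in untreated DNMT1-AID cells, 0.40 after 4 d, 0.36 after 10 d and 0.42 after washout. All 19 chromosomes had a smaller SD at 10 d than untreated by both readings. Chromosome 18 kept the smallest part of its untreated SD, 83.1% balanced and 75.5% by counts, with chromosome 21 next in balanced contact at 84.7% and chromosome 16 by counts at 77.4%. Chromosomes 4 and 5 kept the largest parts in balanced contact, 93% and 94.1%, but 80.7% and 88.2% by counts. With expectations fitted to the totals without self-pairs, chromosome 4 kept the smallest part of the 19, 76.6%, and chromosome 18 kept 77.9%. Which chromosome flattened most thus depended on the reading. In knockout cells 12 of 19 chromosomes had a smaller SD at 10 d by balanced contact and 6 of 19 by counts. Chromosome 18 kept 97.7% there by balanced contact and 91.7% by counts, the smallest part of the 19 by counts.

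In DNMT1-AID cells, pairs with high untreated contact lost most at 10 d. A line through the 120 other pairs had a slope of -0.11 of change on untreated balanced level, where the untreated value enters both axes. Members lay above that line in 38 of 51 cases, against 64 of the 120 pairs that made it, with a median distance of 0.023. The SD of the 120 distances was 0.027. The 3 gene-poor pairs lay 0.074 (4 with 18), 0.060 (5 with 18) and 0.033 (4 with 5) above it. In knockout cells at 10 d the line was flat (-0.0015), the SD of the distances was 0.050, and the same 3 pairs lay 0.069, 0.11 and 0.078 above it.

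**Figure D4:**
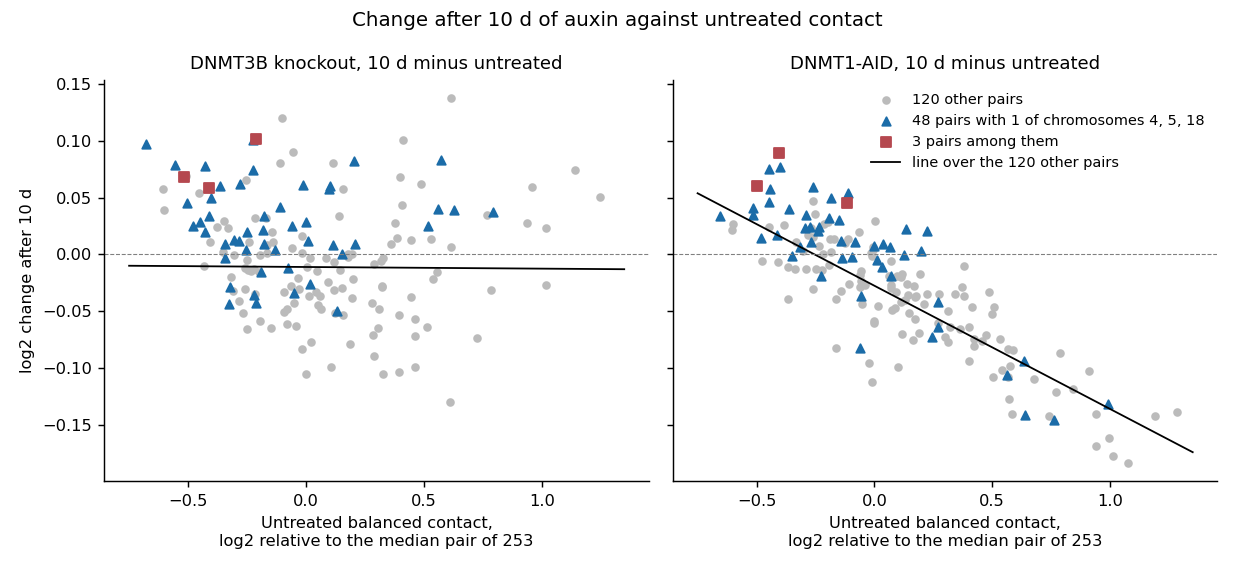
Log2 change of balanced contact after 10 d of auxin against the untreated level for the 3 gene-poor pairs (squares), the 48 other members (triangles) and the 120 other pairs (grey points), knockout cells left and DNMT1-AID cells right, with the line through the 120 pairs. The 3 squares lie above the line in both panels, and the line slopes down in DNMT1-AID cells (-0.11) and is flat in knockout cells.

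At 4 d the changes in DNMT1-AID cells were smaller for the most changed pairs of chromosome 18 and had the same signs. No member was higher and 2 were lower by 0.05 than untreated, chromosome 18 with 17 (-0.077) and with 20 (-0.076), where the background was 3.95% higher and 15.4% lower. The highest were again chromosome 18 with 4 (0.049), 3 (0.041) and 2 (0.040). The 5 longest partners of chromosome 18 had a median of 0.021 (all 5 above 0, none past 0.05) and the 5 shortest -0.048 (all 5 below 0, 2 past 0.05). Between 10 d and 4 d, 1 member was higher and 5 lower (background 5.14% and 11.9%). The largest drop was chromosome 18 with 21 (-0.099) and the largest gain chromosome 4 with 5 (0.052, but 0.00049 by counts). Chromosome 18 with 16 (-0.079) and with 20 (-0.071) followed at the low end, and chromosome 5 with 6 (0.049) and chromosome 3 with 4 (0.048) at the high end.

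After washout few members differed from untreated cells by 0.05, but the change of chromosome 18 still grew with partner length. Per doubling of partner length it grew by 0.026 balanced (r = 0.80) and 0.022 by counts (r = 0.83). At 4 d of auxin without washout these slopes were 0.049 and 0.038. Only chromosome 5 with 21 was higher by 0.05 (0.052, half-interval 0.029, and 0.028 by counts) and none was lower, with a background of 2.77% higher and 2.37% lower. Chromosome 18 with 20 was the lowest relative to untreated, at -0.046 (half-interval 0.027), followed by chromosome 18 with 16 (-0.035) and 13 (-0.031). Chromosome 5 with 14 (0.035) and chromosome 2 with 18 (0.032) were next highest. Relative to 4 d of auxin without washout, no member passed 0.05 in either direction, while 16.6% of all pairs were higher and 1.98% lower. The ends of that comparison were chromosome 4 with 18 (-0.038) and chromosome 17 with 18 (0.0499), opposite in sign to their 4 d changes. The same 4 d library enters both differences with opposite sign, so opposite signs alone do not show a return. By counts the 2 ends had -0.029 (half-interval 0.021) and 0.021 (half-interval 0.025). Next to these ends were chromosome 4 with 16 (-0.033) and chromosome 3 with 18 (-0.027) at the low end, and chromosome 5 with 17 (0.044) and with 21 (0.035) at the high end. The washout library was the shallowest, and 8555 contacts stood behind its smallest member, chromosome 18 with 21.

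In DNMT3B knockout cells 41 of 51 members were above 0 by balanced contact at 10 d relative to untreated, against 44 of the 120 other pairs. In DNMT1-AID cells these were 33 of 51 members and 25 of 120 other pairs. Of the members, 35 had the same sign in both genotypes. By counts, where the trans totals hold each chromosome's average close to fixed, the members did not stand out upwards. In knockout cells 25 of 51 members and 63 of 120 other pairs were above 0 by counts. In DNMT1-AID cells these were 29 of 51 and 81 of 120. The members past 0.05 included chromosome 17 with 18 upwards in knockout cells and downwards in DNMT1-AID cells, a difference that was not tested. At 10 d 15 members were higher and none was lower by 0.05, where 19.4% of all pairs were higher and 17.4% lower. Of these 15, 10 were pairs of chromosome 18, with chromosomes 1, 2, 4, 5, 6, 10, 11, 12, 13 and 17. The count reading kept 2 of the 10, chromosomes 1 and 17, and put 4 members lower, chromosome 4 with 20 and 21 and chromosome 18 with 14 and 21. By counts 6.72% of all pairs were higher and 5.53% lower. The median change of the members was 0.025 balanced and -0.00026 by counts, and that of the 120 other pairs was -0.014 and 0.0013.

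The 3 gene-poor pairs were all among the higher members of knockout cells at 10 d, at 0.10 (5 with 18), 0.068 (4 with 5) and 0.059 (4 with 18) balanced, and 0.026, 0.032 and -0.0043 by counts. In DNMT1-AID cells at 10 d the same 3 had 0.045, 0.060 and 0.090 balanced, and 0.016, -0.0013 and 0.068 by counts. Balanced changes of all 3 were thus above 0 at 10 d in both genotypes, with 5 with 18 short of 0.05 in DNMT1-AID cells, and the counts of one pair in each had the opposite sign. Other high members of knockout cells were chromosome 18 with 1 (0.10, 0.054 by counts) and chromosome 4 with 13 (0.097, 0.037 by counts). The lowest were chromosome 18 with 14 (-0.0497, -0.064 by counts), chromosome 4 with 20 (-0.044, -0.066) and chromosome 4 with 9 (-0.042, -0.013).

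By length class at 10 d in knockout cells, chromosome 18 had medians of 0.062 with the 5 longest and 0.039 with the 5 shortest partners, all 10 above 0 and 4 of them past 0.05. By counts these were 0.016 and -0.022. At 4 d 6 members were higher and none lower (background 8.3% and 5.14%). They were chromosome 18 with 5, 15, 20 and 21 and chromosome 5 with 15 and 21. Chromosome 5 with 15 had 0.074 and chromosome 15 with 18 had 0.068, while the lowest members, chromosome 4 with 9 and 14 and chromosome 18 with 14, had -0.028, -0.018 and -0.018. Chromosome 18 with 21 was the highest at 0.10 (0.055 by counts), and its 5 shortest partners were all above 0 by both readings, with medians of 0.062 balanced (3 past 0.05) and 0.030 by counts (1 past 0.05). Between 10 d and 4 d, 7 members were higher and 2 lower (background 10.7% and 12.3%), with chromosome 18 with 2 at 0.093 and with 21 at -0.068. Chromosome 4 with 13 (0.075) and chromosome 10 with 18 (0.073) were next highest, and chromosome 5 with 15 (-0.066) and with 17 (-0.044) next lowest. Chromosome 18 with 21 was thus highest at 4 d of the 3 knockout libraries.

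Between the genotypes, untreated knockout cells had lower balanced contact than untreated DNMT1-AID cells in 16 members and higher in none, where 31.6% of all pairs were lower and 13.8% higher. The share of lower members, 31.4%, was close to the background share. The 3 lowest were chromosome 18 with 21 (-0.20), 13 (-0.16) and 14 (-0.14). By counts these differences were -0.051, -0.044 and -0.012, and the lowest partner of chromosome 18 was chromosome 20 at -0.053. Chromosomes 13, 14, 15 and 21 are acrocentric and carry ribosomal DNA on their short arms. Low contact with chromosome 18 was not limited to them. It was also lower by 0.05 with chromosomes 5, 10, 11, 17 and 20, as well as with 15. The highest member was chromosome 2 with 18, at 0.022 balanced and 0.070 by counts, followed by chromosome 4 with 15 (0.018, 0.070 by counts) and chromosome 5 with 7 (0.017, -0.0077). Relative to the median of pairs among the 19 chromosomes in place of all pairs, the members' median difference was 0.0030 and not -0.028.

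At 4 d, 2 members were higher and 13 lower in knockout than in DNMT1-AID cells (background 17% and 22.5%). The higher ones were chromosome 5 with 15 (0.068) and chromosome 4 with 6 (0.052), with chromosome 17 with 18 next (0.041). The lowest were chromosome 18 with 14 (-0.14) and chromosome 4 with 21 (-0.10) and 20 (-0.10). At 10 d, 5 were higher and 10 lower (background 22.5% and 28.1%). The balanced differences of the 3 gene-poor pairs between knockout and DNMT1-AID cells were all below 0 at the 3 times, with means of -0.040 untreated, -0.043 at 4 d and -0.029 at 10 d. Past 0.05 were 5 with 18 untreated (-0.095) and at 4 d (-0.071), and 4 with 18 at 4 d (-0.050). Relative to the median of pairs among the 19 chromosomes the means were -0.0088, -0.025 and -0.0062, and 4 with 5 turned above 0 at all 3 times (0.012, 0.011 and 0.012), as did 4 with 18 untreated (0.025). By counts the means were 0.00093, -0.022 and -0.0088.

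Chromosome 4 was lower with chromosomes 16 and 20, both short and gene-dense, in knockout than in DNMT1-AID cells at every time and by both readings. With chromosome 20 the difference was -0.088 untreated, -0.10 at 4 d and -0.15 at 10 d balanced, and -0.059, -0.10 and -0.16 by counts. With chromosome 16 it was -0.079, -0.094 and -0.11 balanced, and -0.062, -0.055 and -0.11 by counts. Chromosome 5 with 20 was also past 0.05 downwards at every time by both readings, at -0.054, -0.060 and -0.088 by counts. The difference with chromosome 20 was thus not particular to chromosome 4. The levels of chromosome 4 with 20 were -0.33, -0.34 and -0.37 in the knockout libraries, against -0.24, -0.24, -0.22 and -0.25 in the DNMT1-AID libraries. Counts gave -0.27, -0.28 and -0.34 in the knockout libraries, against -0.21, -0.18, -0.18 and -0.23 in the DNMT1-AID libraries. The pair was named for being among the lowest at 4 d and 10 d, and how many of all pairs were likewise split by genotype is not given here.

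Chromosome 18 with 14 was lower in knockout cells at all 3 times, with levels of 0.13, 0.11 and 0.082 in the knockout libraries, against 0.27, 0.25, 0.20 and 0.26 in the DNMT1-AID libraries. By counts the 2 genotypes overlapped, at 0.0060, -0.028 and -0.058 in the knockout libraries, against 0.018, 0 (itself the median pair), -0.0066 and 0.015 in the DNMT1-AID libraries. Chromosome 17 with 18 went the other way at 10 d: it was 0.16 higher in knockout cells balanced and 0.15 by counts. Its levels were 0.57, 0.60 and 0.66 in the knockout libraries, against 0.64, 0.56, 0.50 and 0.61 in the DNMT1-AID libraries. It thus climbed with time in auxin in knockout cells and declined in DNMT1-AID cells, and after washout it stood near the untreated level. Chromosome 18 with 16 was also higher in knockout cells at 10 d (0.086, 0.051 by counts), as was chromosome 18 with 10 (0.059, 0.026).

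**Figure D5:**
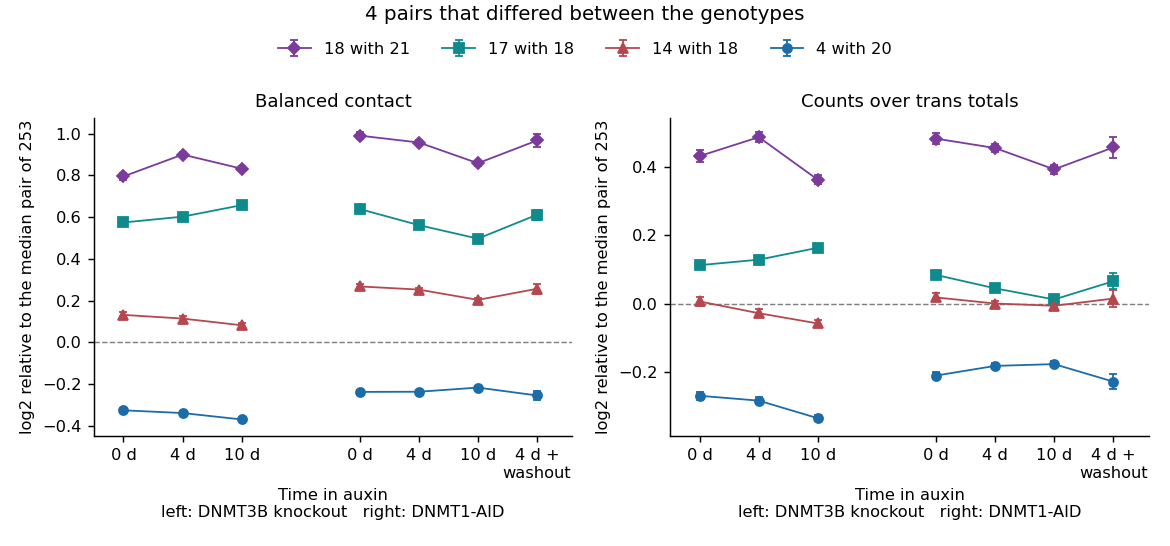
Relative contact (log2 relative to the median of all pairs, with 95% counting intervals) of 4 members by time in auxin, knockout libraries left of DNMT1-AID libraries in each panel. Chromosome 4 with 20 is lower in all knockout libraries by both readings, 14 with 18 by balanced contact, and 17 with 18 runs in opposite directions with time, to 0.66 in knockout and 0.50 in DNMT1-AID cells at 10 d.

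The share of a chromosome's contact ends that lay in trans moved with these comparisons. For chromosome 18 it was 27.1% in untreated knockout cells, 26.6% at 4 d and 32.7% at 10 d, against 23.4% in untreated DNMT1-AID cells, 22.7% at 4 d, 28.8% at 10 d and 25.2% after washout. For chromosome 5 the shares were 22.2%, 21.8% and 26.3% in knockout cells, against 18.6%, 18.1%, 23.7% and 20.3% in DNMT1-AID cells. Chromosome 4 had 20.6%, 19.7% and 24.3%, against 17.2%, 16.6%, 21.7% and 18.7%, the 2nd lowest share of 23 chromosomes in every library. The exact binomial (Clopper-Pearson) 95% limits lay within 0.0781 percentage points of each of these shares, and within 0.0333 of each share of members in trans contacts. Shares were highest at 10 d in both genotypes and higher in knockout cells at each shared time. Relative coverage of chromosomes 4, 5 and 18 stayed within 0.975 to 1.02 times that of untreated DNMT1-AID cells, and that of all 19 chromosomes within 0.963 to 1.07, the highest being chromosome 17 in knockout cells at 10 d. Chromosome 8, outside these 19, stood at 1.44 to 1.46 in the knockout libraries. The part of trans share, coverage or library depth in the differences between libraries was not tested.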

How the data were processed

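Hi-C was made with an Arima kit from DLD1 cells, per the labels' protocols, in 7 libraries, 1 for each group. Per the submitters' processing notes, BWA was used and the build was hg38. How pairs were filtered, how signal was balanced and what was pooled is not given in the sources used here. For each pair of chromosomes the deposited tables hold summed raw counts (whole numbers), a sum of balanced signal and how many bin pairs were valid, per the file headers. Matrix balancing in general rescales bins towards equal totals, so the balanced signal shows how contacts are shared out rather than how many there were.

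The balanced signal was divided by valid bin pairs. Counts were divided by the product of both chromosomes' trans totals over chromosomes 1 to 22 and X, leaving out Y and M. Both were set on log2 relative to the median of all pairs. A pair was counted as higher or lower at a balanced difference of 0.05. Counting intervals (95%) come from the raw counts as Poisson and cover counting error only. Where they stand beside balanced values they are still those of the raw counts, and error from balancing is not in them. Lengths are bins times 50 kb, and genes per Mb use protein-coding genes of a RefSeq table of GRCh38. Trans shares are shares of contact ends, where within-chromosome contacts are those at 100 kb or more. Named are the 3 pairs among the chromosomes, the 2 highest and 2 lowest partners of each chromosome by each reading in untreated DNMT1-AID cells, and the 3 highest and 3 lowest members of each of 11 comparisons by balanced contact.

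With 1 library in each group there was no test. The members and lists were chosen with earlier results of these data known. Alternatives were the other reading, other centrings, expectations fitted without self-pairs, a limit of 0.1 and partner subsets. Python 3.11.15, numpy 2.4.6 and pandas 2.3.3 were used, and the scripts were tested on simulated data. Depth per library ranged from 27345260 to 222645438 contacts.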

Additional observations from a re-analysis of the deposited data

Results flagged for a closer look

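For 3 pairs of chromosome 18 the auxin effect passed 0.05 upwards in knockout cells and downwards in DNMT1-AID cells. None of these differences was tested, since each rests on 4 single libraries. The share of all pairs with such opposite effects is not given here, so the 3 pairs have no background. At 10 d relative to untreated, 19.4% of all pairs were higher in knockout cells and 27.7% lower in DNMT1-AID cells. For chromosome 17 with 18 the 10 d effect was 0.083 in knockout cells and -0.14 in DNMT1-AID cells, a difference of 0.22 in balanced log2. By counts the effects were 0.051 in knockout and -0.072 in DNMT1-AID cells. For chromosome 13 with 18 the 10 d effects were 0.074 in knockout and -0.082 in DNMT1-AID cells, a difference of 0.16. By counts both were below 0, at -0.018 in knockout and -0.036 in DNMT1-AID cells. For chromosome 18 with 20 the 4 d effects were 0.062 in knockout and -0.076 in DNMT1-AID cells, a difference of 0.14. By counts they were 0.040 in knockout and -0.047 in DNMT1-AID cells. Relative coverage of chromosome 17 was 1.07 times that of untreated DNMT1-AID cells in knockout cells at 10 d and 1.03 times in DNMT1-AID cells at 10 d, and its part in these values was not tested.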

How the results depend on the processing

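By counts instead of balanced contact, 9 values kept their place and the others moved, many of them with a turn in sign. The slope of member contact on partner gene density became -0.0018, 0.0015 and -0.0022 in knockout cells (untreated, 4 d, 10 d) and 0.0011, -0.0012, -0.0012 and -0.00059 in DNMT1-AID cells (untreated, 4 d, 10 d, washout). The median change of the members became 0.0017 for DNMT1-AID 4 d against untreated, 0.0023 for DNMT1-AID 10 d against untreated, -0.0021 for washout against untreated, 0.0017 for DNMT1-AID 10 d against 4 d, -0.0023 for washout against 4 d, -0.0011 for knockout 4 d against untreated, -0.00026 for knockout 10 d against untreated, -0.00019 for knockout 10 d against 4 d, 0.0086 for knockout against DNMT1-AID untreated, 0.0031 for knockout against DNMT1-AID at 4 d and 0.0072 for knockout against DNMT1-AID at 10 d. The number of higher members became 0 for washout against untreated, 0 for DNMT1-AID 10 d against 4 d, 1 for knockout 4 d against untreated, 2 for knockout 10 d against untreated, 1 for knockout 10 d against 4 d, 3 for knockout against DNMT1-AID untreated and 4 for knockout against DNMT1-AID at 4 d, and of lower members 0 for DNMT1-AID 4 d against untreated, 4 for DNMT1-AID 10 d against untreated, 1 for DNMT1-AID 10 d against 4 d, 4 for knockout 10 d against untreated, 5 for knockout against DNMT1-AID untreated and 5 for knockout against DNMT1-AID at 4 d. Over all pairs the higher shares by counts were, in that order, 0.395%, 0.791%, 2.77%, 6.72%, 3.95%, 14.6% and 12.6%. The lower shares by counts were, in that order, 4.35%, 8.3%, 1.58%, 5.53%, 8.7% and 11.9%. For the limit of 0.1 that follows, shares over all pairs are not given, so those counts have no background here. A limit of 0.1 in place of 0.05 left 0 for DNMT1-AID 10 d against untreated, 0 for washout against untreated, 0 for DNMT1-AID 10 d against 4 d, 1 for knockout 4 d against untreated, 2 for knockout 10 d against untreated, 0 for knockout 10 d against 4 d, 0 for knockout against DNMT1-AID at 4 d and 1 for knockout against DNMT1-AID at 10 d higher, and 0 for DNMT1-AID 4 d against untreated, 4 for DNMT1-AID 10 d against untreated, 0 for DNMT1-AID 10 d against 4 d, 0 for knockout 10 d against 4 d, 5 for knockout against DNMT1-AID untreated, 4 for knockout against DNMT1-AID at 4 d and 4 for knockout against DNMT1-AID at 10 d lower.

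Relative to the median of pairs among the 19 chromosomes, the members' median change was -0.00056 for DNMT1-AID 4 d against untreated, 0.020 for DNMT1-AID 10 d against untreated, 0.023 for DNMT1-AID 10 d against 4 d, 0.00086 for washout against 4 d, 0.011 for knockout 4 d against untreated, 0.011 for knockout 10 d against 4 d, 0.0030 for knockout against DNMT1-AID untreated, 0.013 for knockout against DNMT1-AID at 4 d and 0.0073 for knockout against DNMT1-AID at 10 d. Relative to all pairs the last 3 of these were -0.028, -0.0051 and -0.016, so that the sign turned. The mean balanced change of the 3 gene-poor pairs was 0.073 for DNMT1-AID 10 d against untreated, 0.018 for knockout 4 d against untreated, 0.058 for knockout 10 d against 4 d, -0.0088 for knockout against DNMT1-AID untreated, -0.025 for knockout against DNMT1-AID at 4 d and -0.0062 for knockout against DNMT1-AID at 10 d. With libraries centred on their mean, the mean balanced change of the 3 pairs was 0.046 for DNMT1-AID 4 d against untreated, 0.086 for DNMT1-AID 10 d against untreated, -0.033 for washout against 4 d and -0.021 for knockout against DNMT1-AID untreated. Counts per bin pair without trans totals gave a mean count change of the 3 pairs of 0.037 for DNMT1-AID 4 d against untreated, 0.056 for DNMT1-AID 10 d against untreated, 0.019 for DNMT1-AID 10 d against 4 d, -0.032 for washout against 4 d, 0.054 for knockout 4 d against untreated, 0.032 for knockout 10 d against untreated, -0.022 for knockout 10 d against 4 d, -0.099 for knockout against DNMT1-AID untreated, -0.082 for knockout against DNMT1-AID at 4 d and -0.12 for knockout against DNMT1-AID at 10 d.

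With expectations fitted without self-pairs the mean count change of the 3 pairs was 0.017 for DNMT1-AID 10 d against untreated and -0.0032 for knockout against DNMT1-AID at 10 d. The length slopes in untreated DNMT1-AID cells became 0.14, 0.024 and -0.31 for chromosomes 4, 5 and 18, an alternative chosen after seeing the data. The density slope over the 16 partners outside the 3 chromosomes was 0.045, 0.045 and 0.042 in knockout cells (untreated, 4 d, 10 d) and 0.046, 0.044, 0.042 and 0.045 in DNMT1-AID cells (untreated, 4 d, 10 d, washout). Without the acrocentric partners it was 0.058, 0.059 and 0.053 in knockout cells (untreated, 4 d, 10 d) and 0.063, 0.058, 0.053 and 0.061 in DNMT1-AID cells (untreated, 4 d, 10 d, washout). Taken on the untreated level of the other genotype, the members' median distance from the line was 0.021 for knockout 4 d against untreated and 0.0088 for DNMT1-AID 4 d against untreated, and the other 3 distances kept their place. Causes were not tested. No paired analysis was possible because the replicate numbers mark no shared culture and each group held 1 library. A fit of genotype and time over the 6 libraries at shared times, which would take their interaction as error, was not run. With 1 library in each group, no replicate was left out. Counting error limits the washout library most.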
